A study of Mus musculus with 9 samples.

Results

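The Hox clusters of the mouse genome carry miRNA genes among their protein-coding genes, and the families miR-10 and miR-196 are the subject here. The 9 rows of the small RNA count table whose names begin with mmu-miR-10a-, mmu-miR-10b-, mmu-miR-196a- or mmu-miR-196b- were selected by name out of 1140 rows. They comprised 4 rows of 5p arms and 5 rows of 3p arms. Livers of 9 male C57BL/6 mice, which were 8 weeks old when the experiment began, were sequenced in 3 groups of 3. The control group was given saline by intraperitoneal injection for 8 weeks. The TAA group was given thioacetamide (TAA), a hepatotoxic compound used to produce liver fibrosis, by the same route over 8 weeks. The recovery group had the same 8 weeks of TAA and a further 8 weeks without injection, so that recovery and the later time of death cannot be told apart. No transgene or deletion was named for any group, every library was made from the liver of a different mouse, and no batch was named in the labels.

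Hox genes encode the transcription factors that give cells of the embryo their position along the head-to-tail axis, and adult tissues keep a region-specific part of that pattern. The miRNAs of the clusters are transcribed near or within Hox genes on the same strand, and transcripts of other Hox genes are among the known targets of miR-196 and miR-10. A miRNA pairs with its targets mainly through the seed, bases 2 to 8 counted from its 5′ end, so members with the same seed share most of their predicted targets. In liver, miR-10a is known as an abundant miRNA, whereas miR-196 is typical of more posterior tissues.

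The mature sequences (RefSeq, build GRCm38.p6, found for 9 of 9 rows) show how close the members of each family are. The seed is in capitals, and the 4 5p arms are shown because the results turn on telling them apart:
mmu-miR-10a-5p: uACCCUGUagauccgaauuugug
mmu-miR-10b-5p: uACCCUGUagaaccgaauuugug
mmu-miR-196a-5p: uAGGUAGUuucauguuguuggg
mmu-miR-196b-5p: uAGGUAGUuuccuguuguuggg
Both miR-10 members have 23 bases and one seed, and they differ by 1 base, U12A from miR-10a to miR-10b. Both miR-196 members have 22 bases and one seed, and they too differ by 1 base, A12C from miR-196a to miR-196b. How the authors' counting placed a read with a sequencing error at such a position was not stated.

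Sequences outside the Hox clusters that overlap these families were read alongside them, because short shared runs can matter when reads are matched:
mmu-miR-99a-5p: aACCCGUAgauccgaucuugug
mmu-miR-99b-5p: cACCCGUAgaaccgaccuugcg
mmu-miR-100-5p: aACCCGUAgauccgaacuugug
mmu-let-7a-5p: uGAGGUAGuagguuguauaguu
The longest run common to mmu-miR-10a-5p and mmu-miR-100-5p was 11 bases, and that common to mmu-miR-10a-5p and mmu-miR-99a-5p was 10 bases, although the seeds differ. The miR-196 seed stands in let-7a at bases 3 to 9, that is 1 base further from the 5′ end than in miR-196.

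In the GENCODE annotation (vM21, GRCm38), the hairpin Mir10a lies at chr11:96317165-96317274 on the plus strand, in no annotated gene, 992 bases before Hoxb4 and 11043 bases after Hoxb5. Mir10b lies at chr2:74726070-74726137 on the plus strand, in an intron of both Hoxd3 and Hoxd4. The mature mmu-miR-196a-5p comes from 2 hairpins with the same 5p sequence, so its counts cannot be assigned to either. Mir196a-1 lies at chr11:96265164-96265265 on the plus strand, in no annotated gene and 6191 bases before Hoxb9. Mir196a-2 lies at chr15:102973350-102973434 on the plus strand, in an intron of the long Hoxc5 span, 1456 bases after Hoxc10 and 3004 bases before Hoxc9. Mir196b lies at chr6:52230081-52230165 on the minus strand, where an exon of Hoxa9 that is neither coding nor UTR in this annotation covers it, and 1031 bases after Hoxa10. Every host gene is on the strand of its hairpin.

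**Figure D1:**
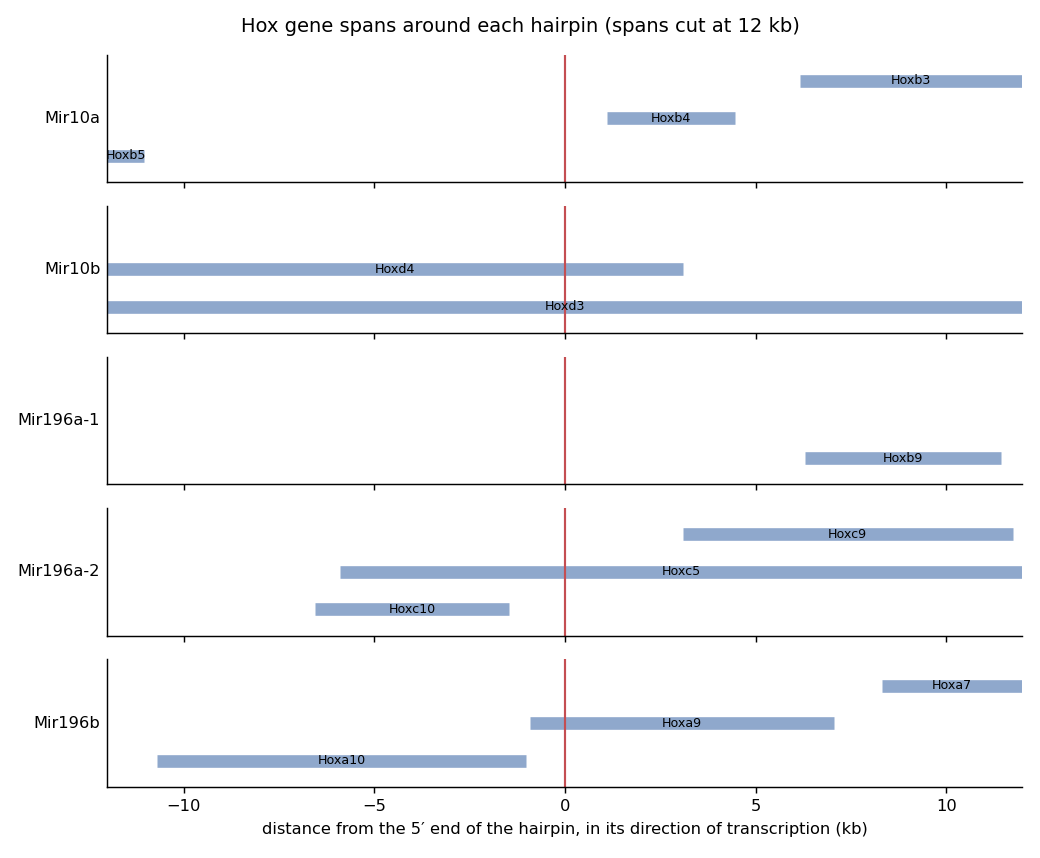
Each row shows the spans of the annotated Hox genes (bars) around a hairpin (red line at 0), with the distance in kb from the 5′ end of the hairpin in its own direction of transcription. Mir10b, Mir196a-2 and Mir196b stand within Hox gene spans, whereas Mir10a and Mir196a-1 stand between them.

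The libraries held 9071847 to 12983378 counts. The hepatocyte miRNAs mmu-miR-122-5p, mmu-miR-192-5p and mmu-miR-194-5p were counted in every library (3 of 3), where they summed to 273164 to 298472 TPM in control, 163104 to 175763 TPM in TAA and 242229 to 307701 TPM in recovery livers. TPM is the count per 1000000 counts of the library. Library composition differed between the groups: the TMM scaling factors, which set libraries on a scale where most miRNAs are level, ranged from 1.49 to 1.65 for TAA livers and from 0.745 to 0.870 for all others. On the TPM scale the median of the 420 rows tested between TAA and control was therefore a log2 fold change of 1.23, against 0.11 on the TMM scale. For this reason the fold changes of the members over all libraries are given on both scales, and those with a library left out on the TMM scale. Markers of other liver cells differed between the groups in TPM as well. The 5 biliary epithelial miRNAs, all counted in every library, summed to 430 to 577 TPM in control livers. Their sums were 5441 to 7927 TPM in TAA and 950 to 1255 TPM in recovery livers. The 5 stellate cell and fibroblast miRNAs summed to 19241 to 24643 TPM, 29450 to 64191 TPM and 16755 to 31359 TPM in the same order. Leukocyte miRNAs summed to 145 to 160 TPM, 435 to 518 TPM and 112 to 194 TPM, endothelial ones to 6576 to 6715 TPM, 8755 to 11204 TPM and 6395 to 8094 TPM, red cell ones to 601 to 1029 TPM, 347 to 785 TPM and 262 to 572 TPM, and pancreatic ones to at most 4.58 TPM in any library. On the TMM scale the endothelial sums were lower in TAA livers (5648 to 6865 CPM) than in control (8445 to 8830 CPM) and recovery livers (8502 to 9300 CPM). The stellate cell and fibroblast sums of the groups overlapped there, at 25835 to 30991 CPM in control and 17868 to 39329 CPM in TAA livers. Biliary and leukocyte sums stayed higher in TAA livers on both scales, and hepatocyte sums stayed lower. Fewer cells of a type and less RNA per cell cannot be told apart in whole liver. The part of these cell types in the values below was not tested.

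Among the members, mmu-miR-10a-5p was by far the most abundant. It held 712883 counts over the 9 libraries and ranked 16th of 1140 rows by mean TMM-scaled level. The second was mmu-miR-10b-5p with 10031 counts, at rank 100. The 3p arm of 10a followed with 4543 counts. The miR-196 5p arms were near the limit of detection, with 135 counts for mmu-miR-196b-5p and 89 for mmu-miR-196a-5p over all 9 libraries, most of them in 1 library. The remaining rows were rarer still: mmu-miR-10b-3p had 35 counts, mmu-miR-196a-1-3p had 5, and mmu-miR-196a-2-3p and mmu-miR-196b-3p had 1 each. Of the 9 rows, only mmu-miR-10a-5p, mmu-miR-10a-3p and mmu-miR-10b-5p passed the filter on low counts in each comparison.

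**Figure D2:**
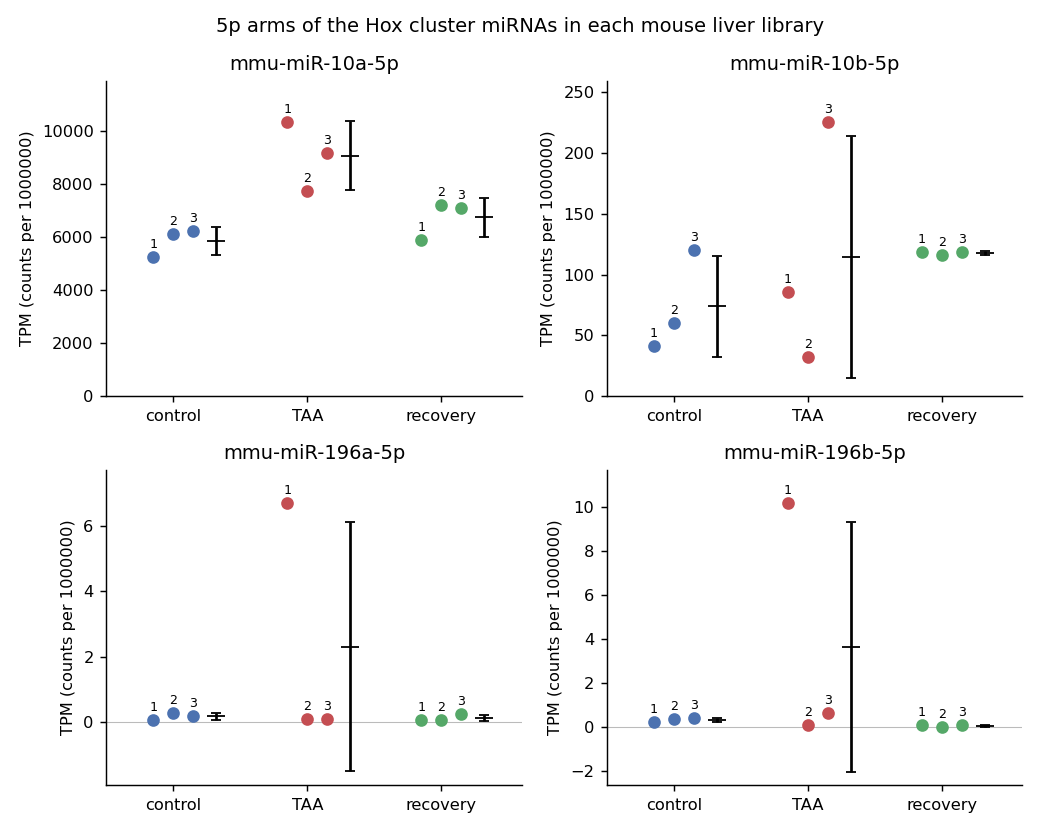
TPM (counts per 1000000 counts) of the 4 5p arms in each library, numbered by replicate, with the mean and SD of each group (n = 3) as a black bar. The miR-10a-5p values of the TAA livers sit above all control and recovery values on this scale. Among all rows tested, 73.3% were likewise higher in every TAA than in every control library, and 63.6% lower in every recovery than in every TAA library. The miR-10b-5p values are spread from 32.2 to 225 TPM in the TAA group and lie between 116 and 119 TPM in the recovery group. Both miR-196 panels are carried by TAA replicate 1.

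A differentially expressed miRNA (DEM) had to pass an FDR of 0.05 together with a 2-fold change in the edgeR quasi-likelihood test on the TMM scale. By this rule 0 of the 3 members tested were DEMs between TAA and control, where 25% of the 420 rows tested were up-regulated DEMs and 16.7% were down-regulated. Between recovery and TAA the count was also 0 of 3, against 10.2% up and 14.5% down among 440 rows. Between recovery and control it was 0 of 3, against 10.5% up and 0.767% down among 391 rows. At an unadjusted p below 0.05 the edgeR test had 1 member, mmu-miR-10a-5p, in each of the first 2 comparisons and 0 in the third, and DESeq2 and limma likewise gave 0 DEMs among the members in all 3. The TAA livers enter 2 of the comparisons and the control and recovery livers 2 each, so the comparisons are not independent of each other.

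The miR-10a-5p level was 5259, 6096 and 6229 TPM in the control livers. In the TAA livers it was 10329, 7720 and 9164 TPM. In the recovery livers it was 5903, 7210 and 7105 TPM. All TAA values lay above all values of both other groups on this scale, with group means of 5861 ± 525 (control), 9071 ± 1307 (TAA) and 6739 ± 726 TPM (recovery; SD, n = 3). Separation of the groups in this direction was common, since 73.3% of the rows tested were higher in every TAA than in every control library in TPM, and 63.6% were lower in every recovery than in every TAA library. On the TMM scale the order turned: miR-10a-5p was at 6614, 8140 and 8363 CPM in control, 6938, 4684 and 5614 CPM in TAA, and 7848, 8284 and 8261 CPM in recovery livers. There the TAA and control values overlapped, while every recovery value was above every TAA value, as for 25.7% of the rows tested.

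Between TAA and control the log2 fold change of miR-10a-5p was -0.49 ± 0.15 (SE) on the TMM scale (FDR = 0.0236, edgeR quasi-likelihood test) and 0.63 ± 0.13 on library totals (FDR = 0.00356), so its sign was set by the scaling. Relative to the median of the rows tested it was lower, at -0.60 on TMM and -0.60 on library totals. A change of scaling moves all rows and their median together, so this agreement was built in. With other rows or another measure the distance was -1.07 (no filter), -0.46 (mean of at least 10 CPM) and -0.45 (limma on log2(TPM + 1)). Between recovery and TAA the values were 0.43 ± 0.14 (FDR = 0.0461) and -0.43 ± 0.15 (FDR = 0.0392), or 0.55 above the median on both scales. With 1 library left out, the TMM-scaled value between TAA and control ranged from -0.61 to -0.37 and that between recovery and TAA from 0.37 to 0.64, so both kept their sign with fewer samples. The FDR of the first rose above 0.05 without control replicate 2 or 3 or TAA replicate 2 or 3 (from 0.0540 to 0.0838). That of the second rose above 0.05 without TAA replicate 2 or 3 or any of the recovery replicates (from 0.0533 to 0.143). With the replicate number as a block the second had an FDR of 0.103. It was also above 0.05 in the edgeR test with DESeq2 scaling factors (0.0523) and with totals without the 3 most abundant rows (0.0598). The same held without the filter (0.0803) and with a mean of at least 10 CPM (0.170). The FDR of the first was above 0.05 with all 9 samples in 1 fit (0.0501) and with a mean of at least 10 CPM (0.170). Between recovery and control miR-10a-5p stood at 0.01 ± 0.10 (FDR = 0.965), or 0.20 ± 0.12 on library totals (FDR = 0.407).

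The 3p arm is the strand of the Mir10a hairpin that is usually discarded. Its level was 34.8, 33.0 and 33.0 TPM in control livers, 61.4, 52.7 and 72.5 TPM in TAA livers and 34.4, 51.7 and 42.7 TPM in recovery livers. Every TAA value again exceeded every other value in TPM, which was common on this scale. Of the rows tested, 73.3% were higher in every TAA than in every control library. In recovery against TAA, 63.6% were lower in every recovery library. The fold change between TAA and control was -0.23 ± 0.16 on the TMM scale (FDR = 0.235) and 0.89 ± 0.16 on library totals (FDR = 0.00201), or -0.35 and -0.34 relative to the median. Between recovery and TAA it was 0.33 ± 0.19 (FDR = 0.202) against -0.54 ± 0.21 (FDR = 0.0575), and between recovery and control 0.16 ± 0.14 (FDR = 0.618) against 0.35 ± 0.18 (FDR = 0.292). The ratio of the 5p to the 3p arm, which no scaling can alter, lay between 126 (TAA replicate 3) and 189 (control replicate 3), and the 3 groups overlapped.

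**Figure D3:**
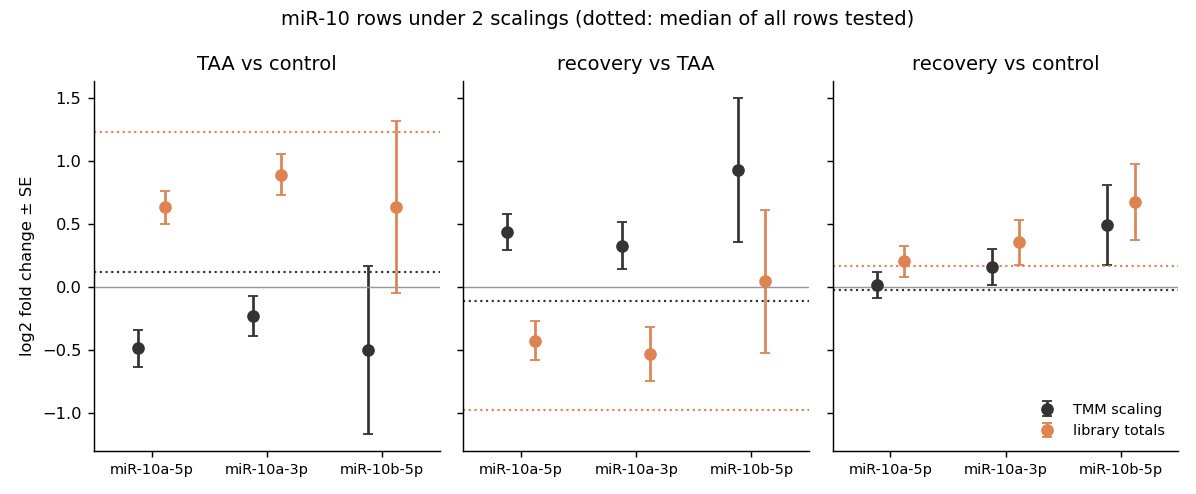
log2 fold change (± SE, n = 3 libraries per group) of the 3 miR-10 rows tested, in each comparison, on the TMM scale (black) and on library totals (orange), with the median of all rows tested on each scale as a dotted line. In TAA against control and recovery against TAA the points of miR-10a-5p and miR-10a-3p change sides of 0 with the scaling. Their distance to the median is kept because the scaling moves all rows and the median together.

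The sister miRNA miR-10b-5p, from the Hoxd cluster, did not follow miR-10a-5p from liver to liver. It was measured at 41.2, 60.2 and 120 TPM in the control group. The TAA group had 85.9, 32.2 and 225 TPM, which includes both the lowest and the highest value of the study. The recovery group had 118, 116 and 119 TPM. In the recovery group the values differed by little (118 ± 1.38 TPM, SD, n = 3), in contrast to 73.9 ± 41.3 TPM in control and 114 ± 99.7 TPM in TAA livers, and the 3 groups overlapped. Counting error was far smaller than these gaps: the 95% Poisson interval of the TAA replicate 2 value was 28.6 to 36.1 TPM, and that of TAA replicate 3 was 215.7 to 235.2 TPM.

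No comparison of miR-10b-5p passed the threshold. The log2 fold change was -0.50 ± 0.67 between TAA and control (FDR = 0.535), 0.93 ± 0.57 between recovery and TAA (FDR = 0.235) and 0.49 ± 0.32 between recovery and control (FDR = 0.445). On library totals it was 0.63 ± 0.68, 0.04 ± 0.57 and 0.67 ± 0.30 (FDR = 0.432, 0.955 and 0.211). Single libraries decided these values. Without TAA replicate 3 the difference between TAA and control became -1.39 (FDR = 0.0885), and that between recovery and TAA became 1.82 and passed as a DEM (FDR = 0.0160). Without TAA replicate 2 these values were -0.05 (FDR = 0.937) and 0.53 (FDR = 0.282). Without control replicate 3 the TAA to control value was 0.02 (FDR = 0.988), and recovery against control reached 1.02 and passed as a DEM (FDR = 0.0100); without control replicate 1 the latter was 0.18 (FDR = 0.760).

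TAA replicate 3, the library with the highest miR-10b-5p value, also stood apart in the miRNAs of striated muscle. All 7 of these miRNAs were counted there, with a sum of 7714 TPM, whereas in the other 8 libraries 4 or 5 of them were counted and the sum was 7.45 to 40.3 TPM. mmu-miR-1a-3p, the most abundant muscle miRNA, had 67184 counts in that library and 73 to 488 elsewhere, and mmu-miR-133a-3p had 2281 counts against 3 to 14. mmu-miR-133a-5p and mmu-miR-133b-3p had 107 and 100 counts there and 0 in each of the other libraries. Not every miRNA of the list set this library apart so far. mmu-miR-208b-3p had 1 count there and 1 in recovery replicate 3. mmu-miR-499-5p was at 10.6 TPM there, against 6.63 and 4.74 TPM in TAA replicates 1 and 2. The excess of each row in TAA replicate 3 over the mean of the other TAA livers was ranked over the 235 rows with a mean of at least 10 CPM in that group, an order looked up after the values had been seen. On this list miR-10b-5p was 5th with a log2 excess of 1.93, after mmu-miR-1a-3p, mmu-miR-1b-5p, mmu-miR-133a-3p and mmu-miR-206-3p, while miR-10a-5p was 115th with 0.02. The part of muscle RNA in the miR-10b-5p value was not tested. Control replicate 3 and the recovery livers had miR-10b-5p at 116 to 120 TPM with muscle sums of 7.45 to 33.2 TPM.

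Within a library, the share of miR-10b-5p among the miR-10 5p counts is free of scaling. It was 0.777%, 0.978% and 1.90% in control livers, 0.824%, 0.415% and 2.40% in TAA livers and 1.96%, 1.59% and 1.65% in recovery livers. The recovery values fell inside the span of the TAA values, and control replicate 3 was among them. The Wilson 95% interval of the lowest share, 0.370% to 0.465%, did not reach the next lowest, 0.715% to 0.846%, so the livers differed by more than counting error. The mean log2 ratio of miR-10a-5p to miR-10b-5p was 6.45 ± 0.68 in control, 6.72 ± 1.29 in TAA and 5.83 ± 0.17 in recovery livers (SD, n = 3). The exact permutation test over the 3 groups gave p = 0.461 (two-sided, adjusted p = 0.461 over 3 ratios, the smallest p possible being 0.00357). For pairs of groups the exact test cannot go below p = 0.1, and it gave p = 0.9 for TAA against control, p = 0.4 for recovery against TAA and p = 0.3 for recovery against control.

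**Figure D4:**
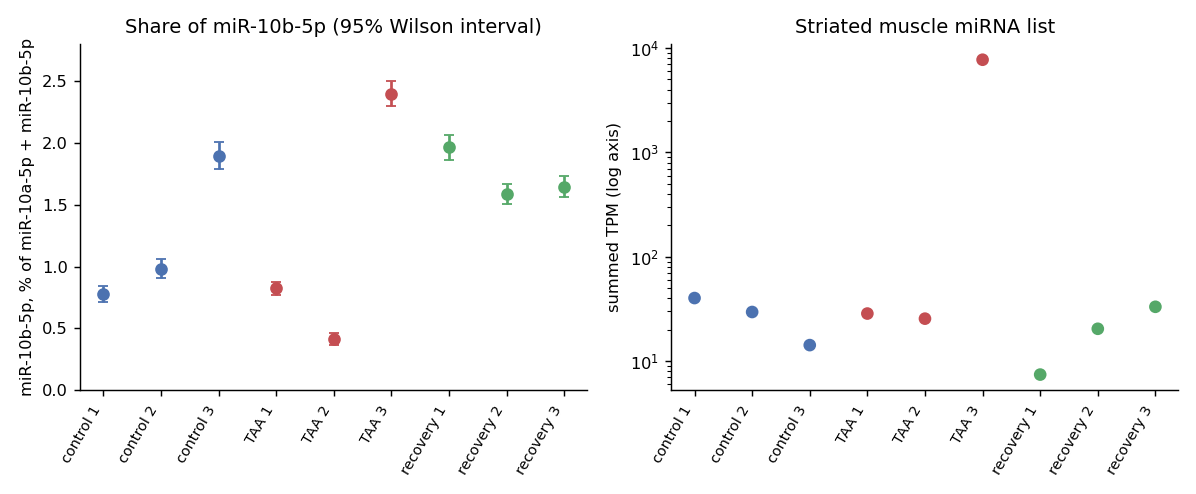
Left, miR-10b-5p as a percentage of the miR-10a-5p and miR-10b-5p counts of each library, with its 95% Wilson interval (counting error only). Right, the summed TPM of 7 striated muscle miRNAs in the same libraries on a log axis, where TAA replicate 3 is at 7714 TPM and all others are at 40.3 TPM or less.

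The miR-196 family gave values near the floor of detection in 8 of 9 livers. mmu-miR-196a-5p had 1, 3 and 2 counts in the control livers, 76, 1 and 1 counts in the TAA livers and 1, 1 and 3 counts in the recovery livers. mmu-miR-196b-5p had 3, 4 and 4 counts, then 115, 1 and 6 counts, then 1, 0 and 1 counts in the same order. Both were thus high in TAA replicate 1 and in no other liver of that group, and whether these counts came from the liver tissue of that mouse was not tested. In TAA replicate 1 miR-196b-5p reached 10.2 TPM (95% Poisson interval 8.39 to 12.2) and miR-196a-5p reached 6.71 TPM (5.29 to 8.40). The highest values elsewhere were 0.655 TPM (0.240 to 1.42) for miR-196b-5p, in TAA replicate 3, and 0.292 TPM (0.0603 to 0.854) for miR-196a-5p, in control replicate 2. The 0 counts of miR-196b-5p in recovery replicate 2 allow a level of up to 0.244 TPM by the 3-count floor, and the two-sided Poisson interval used for the other values ends at 0.301 TPM. Reads carried no molecular identifiers, so intervals and floors cover counting error only.

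As a group, the TAA livers averaged 3.64 ± 5.65 TPM of miR-196b-5p and 2.31 ± 3.81 TPM of miR-196a-5p (SD, n = 3), with SDs above the means. The control livers averaged 0.341 ± 0.0953 and 0.190 ± 0.108 TPM, and the recovery livers 0.0540 ± 0.0468 and 0.135 ± 0.0918 TPM. No fold is given between control and recovery livers, which were at or close to the 3-count floor in both groups. All control values of miR-196b-5p were above all recovery values (exact two-sided permutation p = 0.1, the smallest that 3 against 3 allows), as for 3.32% of the 391 rows tested in that direction, but these are counts of 3 and 4 against 0 and 1.

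Neither miR-196 row passed the filter on low counts. When no filter was applied, both were DEMs between TAA and control, at a fitted log2 fold change of 2.55 ± 0.75 for miR-196a-5p (FDR = 0.00375) and 2.36 ± 0.62 for miR-196b-5p (FDR = 8.9e-04, both edgeR), where 12.6% of 1085 rows were up-regulated DEMs. Both were also DEMs between recovery and TAA, at -3.25 ± 0.73 (FDR = 1.1e-04) and -5.09 ± 0.77 (FDR = 1e-09), where 8.46% of 1099 rows were down-regulated DEMs. On library totals the 4 values were 3.60, 3.42, -4.02 and -5.83 in the same order. These fitted values depend on the counts added by the method and are no bounds. The calls rested on TAA replicate 1. Without it, miR-196a-5p was at -1.77 (FDR = 0.461) and miR-196b-5p at -0.97 (FDR = 0.544) between TAA and control, and at 1.17 (FDR = 0.552) and -1.69 (FDR = 0.496) between recovery and TAA. The FDR also rose above 0.05 without control replicate 1 in the first comparison (FDR = 0.318 and 0.254) and without recovery replicate 1 in the second (FDR = 0.276 and 0.0720), but there the fold changes stayed large, at 2.12 and 2.09 and at -3.02 and -5.47. With robust dispersions, which let a row with 1 aberrant library keep its own spread, all 4 calls were lost (FDR from 0.330 to 0.481 for edgeR), and DESeq2 without the filter kept 1 of them, miR-196b-5p between recovery and TAA (FDR = 0.00891).

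Of the 191 miR-196 5p counts in TAA replicate 1, 39.8% were miR-196a-5p (Wilson 95% interval 33.1% to 46.9%). In the other libraries the sum of both was 1 to 7 counts, and their shares could not be told from this value at this depth. The mean log2 ratio of miR-196a-5p to miR-196b-5p was -0.81 ± 0.43 in control, -0.90 ± 1.09 in TAA and 0.94 ± 0.83 in recovery livers (exact permutation p = 0.075 over the 3 groups, adjusted p = 0.225). The mean log2 ratio of the miR-10 to the miR-196 5p arms was 13.40 ± 0.45, 12.51 ± 2.88 and 15.001 ± 0.80 (exact permutation p = 0.261, adjusted p = 0.391). In each library miR-10a-5p made up 97.6% to 99.6% of the counts of the 4 5p arms, TAA replicate 1 included (99.0%).

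TAA replicate 1 was then set against the other TAA livers across the table, as a description without a test. By the rule of at least 10 CPM on average in the TAA group, neither miR-196 row was among the 235 rows ranked, and the 5 highest were mmu-miR-32-5p (log2 excess 1.32), mmu-miR-17-5p (1.26), mmu-miR-19b-3p (1.01), mmu-miR-20a-5p (0.93) and mmu-miR-222-3p (0.82). miR-10a-5p was 42nd with 0.29, miR-10a-3p 110th with -0.03 and miR-10b-5p 201st with -0.58. With a lower limit of 50 counts summed over the TAA libraries, a limit chosen after the counts had been seen, 415 rows were ranked. The miR-196 rows met this limit only through TAA replicate 1 itself, with 76 and 115 counts there, so a high rank was built into the limit and is no support for a difference. There mmu-miR-196a-5p was 1st with a log2 excess of 5.36, mmu-miR-452-5p 2nd with 4.82, mmu-miR-196b-5p 3rd with 4.54, mmu-miR-1983 4th with 3.38 and mmu-miR-363-3p 5th with 2.88. miR-452-5p had 70 counts in TAA replicate 1 and 0 to 7 in every other library. It too met the limit only through TAA replicate 1. Its likeness to the miR-196 rows was thus favoured by the limit and is no support for a shared pattern.

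**Figure D5:**
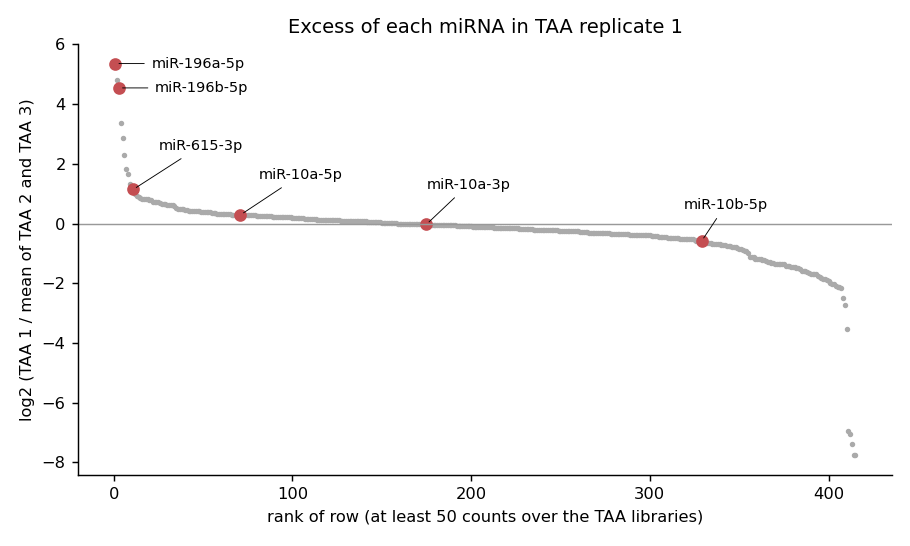
All 415 miRNA rows with at least 50 counts over the TAA libraries, ranked on the x axis by the log2 ratio of TAA replicate 1 to the mean of TAA replicates 2 and 3 (y axis, 0.5 counts added). The miR-196a-5p and miR-196b-5p points stand at 5.36 and 4.54, whereas the 3 miR-10 rows stand between -0.58 and 0.29.

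The other miRNA of the Hox clusters, miR-615 of the Hoxc5 intron, was rare but present throughout. mmu-miR-615-3p had 8, 3 and 7 counts in control livers, 31, 9 and 13 in TAA livers and 9, 7 and 10 in recovery livers, so that TAA replicate 1 was again the highest. Its excess there was 1.14 on the log2 scale, at rank 11 of 415. It met the count limit of that ranking only through TAA replicate 1, with 31 counts there. A high rank was thus favoured by the limit and is no support for a difference. The log2 fold change of mmu-miR-615-3p was 0.58 ± 0.54 between TAA and control (FDR = 0.390) and -0.45 ± 0.48 between recovery and TAA (FDR = 0.494) on the TMM scale. The 5p arm of miR-615 had 1 count in recovery replicate 2 and none elsewhere.

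The miR-99 and miR-100 rows, which share a run of sequence but not the seed with miR-10, were compared in the same fits. Of these 3 rows and the 2 miR-615 rows, 4 were tested against TAA livers, and 0 rose and 0 fell as DEMs on the TMM scale, whereas on library totals mmu-miR-99b-5p and mmu-miR-615-3p were DEMs, higher in TAA than in control livers (as were 57.4% of rows) and lower in recovery than in TAA livers (as were 46.1%). mmu-miR-99a-5p passed the FDR without reaching 2-fold, at -0.72 ± 0.14 between TAA and control (FDR = 0.00411) and 0.90 ± 0.16 between recovery and TAA (FDR = 0.00396). mmu-miR-99b-5p had the opposite signs on that scale, at 0.61 ± 0.11 (FDR = 0.00244) and -0.64 ± 0.13 (FDR = 0.00741). Its level was 530 to 549 TPM in control, 1722 to 1852 TPM in TAA and 612 to 682 TPM in recovery livers. mmu-miR-100-5p stood at -0.29 ± 0.18 (FDR = 0.205) and 0.24 ± 0.19 (FDR = 0.367). The sign between TAA and control turned on library totals for mmu-miR-99a-5p (0.40) and mmu-miR-100-5p (0.83) and held for mmu-miR-99b-5p (1.73).

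Rows most like each member were sought among 223 rows with a mean of at least 10 CPM, by the root mean square difference of centred log2(CPM + 1) values over the 9 libraries. For miR-10a-5p these were mmu-let-7c-5p (0.13), mmu-miR-3535 (0.13) and mmu-let-7f-5p (0.14), against a median of 0.45 over all 223 rows. The let-7c-5p level was 1907 to 2058 TPM in control, 2935 to 3254 TPM in TAA and 1948 to 2558 TPM in recovery livers. For miR-10b-5p the nearest were mmu-miR-26a-5p (0.68), mmu-miR-99a-5p (0.69) and mmu-miR-144-5p (0.69), against a median of 0.97, so no abundant row came as close to it as several did to miR-10a-5p. For miR-196a-5p they were mmu-miR-17-5p (0.33), mmu-miR-32-5p (0.42) and mmu-miR-222-3p (0.42), against a median of 0.81. For miR-196b-5p they were mmu-miR-17-5p (0.41), mmu-miR-20a-5p (0.53) and mmu-miR-32-5p (0.53), against a median of 0.94. Outside TAA replicate 1 both miR-196 rows were at 0.54 CPM or less, below the 1 CPM added, so their profiles were nearly flat there. These distances therefore rest mostly on TAA replicate 1 and show no shared course over the other libraries. Rare rows such as miR-452-5p were left out by the 10 CPM limit. mmu-miR-17-5p was at 182 TPM in TAA replicate 1 and at 88.1 and 64.3 TPM in the other TAA livers. In the control and recovery livers it was at 24.7 to 33.5 TPM. Unlike for the miR-196 rows, all 3 TAA values thus lay above all others in TPM. In TPM, 73.3% of the rows tested were higher in every TAA than in every control library. The likeness itself was computed on TMM-scaled CPM, which lowers TAA values against the other groups.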

How the data were processed

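The authors isolated total liver RNA with TRIzol, built libraries with a NEBNext ligation kit and sequenced single-end reads, which they matched to mm10 and miRBase with Bowtie (1.3.0 in the submitters' processing notes). Ligation efficiency differs between miRNAs, so levels of different miRNAs compare only roughly. The deposited table holds raw counts per mature miRNA and the TPM the authors derived from them (count per 1000000 of the column). The placement of reads that match several miRNAs was not given in the sources used here.

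Members and lists were chosen with earlier results of these data known. From the counts, edgeR 4.0.16 (R 4.3.3) was used with filterByExpr (minimum count 10), TMM factors and the quasi-likelihood test for each pair of groups (3 against 3), adjusted over all rows by Benjamini-Hochberg; it was tested on simulated data. SEs are the fold change divided by the root of F. Ratios (0.5 counts added) were compared by exact permutation of 1680 arrangements. Alternatives were library totals, other factors, DESeq2 1.42.0, limma 3.58.1 on log2(TPM + 1), other filters, a replicate block and leaving out each library. Named rows were the miR-615 arms, the miR-99/100 relatives, let-7a for its sequence and the 3 nearest profiles of each 5p arm. Also named were the 5 highest rows of TAA replicates 1 and 3 and markers of the hepatocyte and striated muscle lists. The other cell type lists were given as sums.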

Additional observations from a re-analysis of the deposited data

How the results depend on the processing

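The count of DEMs among the members (0 in each comparison) became 2 in TAA against control and 2 in recovery against TAA without the filter on low counts; over the omission of single libraries it ranged from 0 to 0, 0 to 1 and 0 to 1 in the 3 comparisons. The signs of miR-10a-5p and miR-10a-3p in TAA against control and recovery against TAA, and of miR-10b-5p in TAA against control, followed the scaling, whereas miR-10b-5p in recovery against TAA (0.04 to 0.99) and all 3 rows in recovery against control stayed positive under every scaling. In TAA against control, miR-10a-5p was at 0.63 on library totals, 0.50 on totals without the 3 most abundant rows, and 0.62 and 0.62 by limma with 1 or 0.1 TPM added. miR-10a-3p was at 0.89, 0.76, 0.86 and 0.87 in the same order, and miR-10b-5p at 0.63, 0.47, 0.35 and 0.35. In recovery against TAA, miR-10a-5p was at -0.43, -0.33, -0.42 and -0.42, and miR-10a-3p at -0.54, -0.44, -0.53 and -0.54. In recovery against control, miR-10a-5p was at -0.012 without the filter. Omission of single libraries gave ranges from -1.39 to 0.015 (miR-10b-5p, TAA against control), -0.089 to 0.060 (miR-10a-5p, recovery against control) and, without the filter, -1.77 to 3.14 and -0.97 to 2.95 (miR-196a-5p and miR-196b-5p, TAA against control) and -3.93 to 1.17 (miR-196a-5p, recovery against TAA).

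For the ratios, the TAA minus control difference ranged under these omissions from -0.32 to 0.96 (miR-10a to miR-10b), -0.54 to 0.51 (miR-196a to miR-196b) and -2.02 to 0.74 (miR-10 to miR-196). The permutation p fell below 0.05 without recovery replicate 1 for miR-196a to miR-196b (exact p = 0.0464) and without TAA replicate 2 for miR-10 to miR-196 (exact p = 0.0179). With 0 counts added, miR-196a to miR-196b could use only 8 libraries, since 1 had no miR-196b-5p count.

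Same-numbered mice were different animals, and their deviations from the group means correlated at -0.36 to 0.37 over 226 rows. With 3 mice a group these correlations, of both signs, cannot decide whether the numbers pair the libraries. With the replicate block the DEM counts stayed at 0, miR-10b-5p was at -0.74, 1.33 and 0.63 in the 3 comparisons, and the ratios had exact p = 0.528, 0.111 and 0.333. Counts of 6 or fewer limit the miR-196 values outside TAA replicate 1. With 3 mice a group, p-values cover the spread between these mice only.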
